A study of Mus musculus with 8 samples.

Results

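Gastrocnemius RNA of older mice, 24 or 30 months of age, was compared with that of younger mice, 3 or 12 months of age. Each pool held 4 libraries, 2 per age, and together they are all 8 libraries of the series. All libraries came from C57BL/6 mice, an inbred laboratory strain, and the labels name no treatment or genetic change in any of them. The libraries were assigned to the pools by the age in their titles, and the genes of interest were those whose 4 older libraries all lay above, or all lay below, the range of the 4 younger ones. Of 18419 genes expressed enough to be tested, 880 met that condition.

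The gastrocnemius is a large calf muscle made mainly of fast-contracting fibres, each controlled by a motor nerve through a neuromuscular junction. Old muscle is known for loss of mass, loss of nerve contact in some of its fibres, a partial shift from fast to slow contractile proteins, and low-grade inflammation. A fibre that loses its nerve switches on genes that innervated muscle keeps low, among them the subunits of the acetylcholine receptor.

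Total counts ranged from 42404254 to 59245029 per library, and the level that a count of 0 allows was at most 0.0506 to 0.0707 CPM, meaning counts relative to the library total. That limit reflects counting error alone. Levels below are CPM scaled by the TMM method. The tissue label was checked on 12 muscle fibre genes, which summed to 251200 to 417200 CPM. Transcripts of 9 kidney genes summed to more than 1 CPM in 5 libraries, 3 of them younger (48.1, 15.5 and 5.18 CPM) and 2 older (3.70 CPM in replicate 1 of 24 months and 2.94 CPM in replicate 2 of 30 months), and to 0.175 to 0.594 CPM in the other 3. Whether the replicate libraries represent different mice is not stated in the labels, and p-values therefore reflect the spread between these libraries alone, which may be technical. In bulk RNA, fewer cells of a type and less RNA per cell cannot be told apart.

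No gene passed an adjusted p of 0.05 in the edgeR quasi-likelihood test of the 2 pools, in which differences between the 2 ages of a pool count as spread. The lowest adjusted p was 0.135, and 1479 genes (8.03% of those tested) had an unadjusted p under 0.05, 780 of them higher (4.23%) and 699 lower (3.79%) in the older pool, where 921 would be expected with no difference at all. Under DESeq2, 123 genes passed (0.668%), 69 of them higher and 54 lower in the older pool, and 112 of these 123 were among the genes without overlap. Limma-voom called 0 genes, and the quasi-likelihood test with the 4 ages in the model called 17 (0.0923%), 16 of them higher (0.0869%) and 1 lower (0.00543%). With the 4 ages and a term for the 5 libraries with kidney transcripts, a model added after seeing the data, it called 228 (1.24%), 151 higher (0.82%) and 77 lower (0.418%). Because the primary test made no call, differences below are given as levels per library, and adjusted p-values are those of the quasi-likelihood test of the pools unless another test is named.

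Of the 880 separated genes (4.78% of those tested), similar numbers lay in each direction. Some genes separate fully by chance even where the pools do not differ. The 880 are therefore not a count of genes that differ with age, and no number expected by chance was subtracted from them. All 4 older libraries lay above all 4 younger ones for 426 genes (2.31% of those tested) and below them for 454 (2.46%). Genes that were higher in the older pool differed by more, with a median absolute log2 fold change of 0.481 against 0.332 for those that were lower. At least a 2-fold difference was reached by 71 of the 426 higher genes and by 28 of the 454 lower ones. Of the separated genes, 333 of the higher and 359 of the lower ones were annotated as protein coding.

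**Figure D1:**
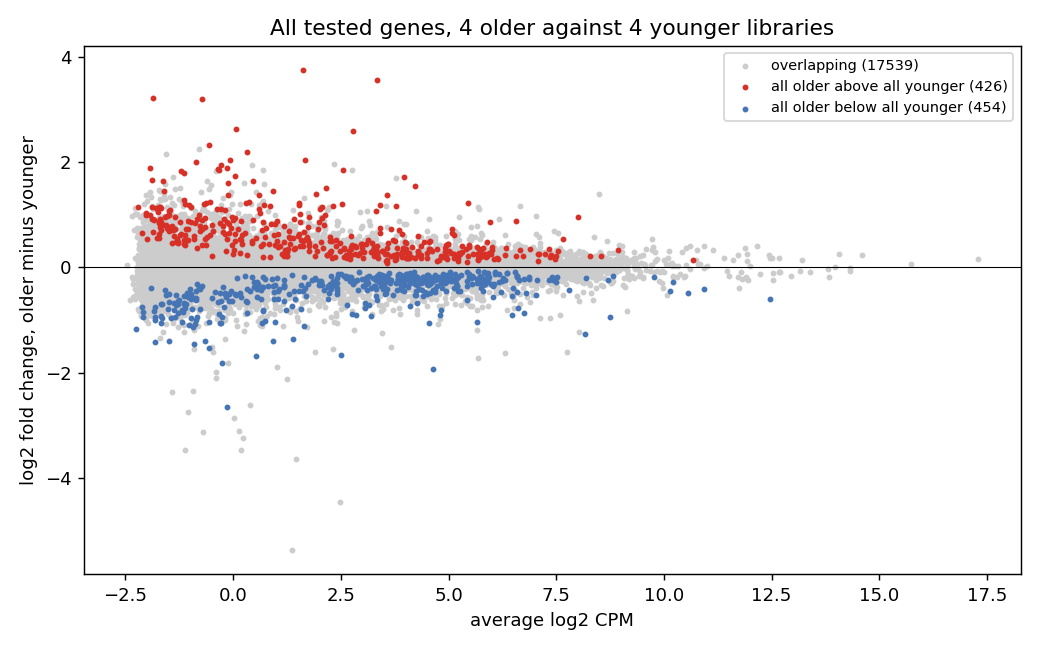
Log2 fold change (older minus younger, vertical axis) against average log2 CPM (horizontal axis) for all 18419 tested genes, 1 point per gene. The 426 genes with all older libraries above all younger ones (red) and the 454 with all older libraries below (blue) lie on both sides of 0 at every level, among many grey genes of similar fold change whose libraries overlapped.

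Where in life the separation arose was read from the differences between mean log2 CPM of consecutive ages. The difference between 12 and 24 months was the largest of the 3 in the direction of the separation for 322 of the 426 higher genes and for 389 of the 454 lower ones. For the higher genes the median differences were 0.077 from 3 to 12 months, 0.402 from 12 to 24 months and 0.019 from 24 to 30 months. For the lower genes they were -0.031, -0.299 and -0.009. The choice of genes with a gap between 12 and 24 months favours that difference, so these values are a description. All 3 differences had the same sign in 150 of the higher and 146 of the lower genes.

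Gaps between the pools were ranked among genes with an average log2 CPM of at least 1 and a symbol other than a clone or prediction. Outside that ranking, Gm11734, Krt8, Cxcl10 and Ryr2 had log2 gaps of 1.21, 1.15, 1.13 and 0.96, against 0.92 for Srrm4os, the second ranked higher gene. The widest gap among the ranked higher genes was that of Krt18 (GRCm38 chromosome 15, 102028216 to 102032026, plus strand), which encodes keratin 18, an intermediate filament protein of simple epithelia that denervated muscle also expresses. Krt18 was at 0.173 and 0.0556 CPM (3 months), 0.701 and 0.739 (12 months), 2.44 and 4.26 (24 months) and 6.21 and 9.78 CPM (30 months). Every older library was above every younger one, and both libraries of 3 months were the lowest. Replicate 2 of 3 months was just above the 0.0529 CPM that a count of 0 allows in that library. The fitted log2 fold change came to 3.75 ± 0.65 (SE, adjusted p = 0.173), and it passed under DESeq2 (adjusted p = 0.0018) and in the model of the 4 ages (adjusted p = 0.00119). The log2 difference of Krt18 was 4.32 within the 5 libraries with kidney transcripts. It was 2.73 within the other 3, where replicate 2 of 12 months was the only younger library. A separated gene has the same sign in any part of the libraries, so only the sizes are described by this split.

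Cpne2 (chromosome 8, 94532990 to 94570531, plus strand), which encodes copine 2, a calcium-dependent membrane-binding protein, had a similar course at a higher level. It was at 5.56 and 6.08 CPM (3 months), 12.3 and 13.6 (12 months), 20.8 and 25.5 (24 months) and 32.96 and 30.9 CPM (30 months). The 4 ages did not overlap one another, and the log2 fold change was 1.55 ± 0.29 (SE, adjusted p = 0.199, and 0.000669 in the model of the 4 ages). Slc6a17, a transporter of neutral amino acids into synaptic vesicles, was at 1.32 and 0.816 CPM (3 months), 2.28 and 2.33 (12 months), 3.51 and 3.38 (24 months) and 4.12 and 4.84 CPM (30 months). Its ages did not overlap either (log2 fold change 1.23 ± 0.29, SE, adjusted p = 0.342).

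Eda2r (chromosome X, 97333840 to 97377216, minus strand), the receptor for ectodysplasin A2, whose transcription p53 drives, stood at 21.5 and 19.1 CPM (3 months), 37.9 and 26.9 (12 months), 51.9 and 67.2 (24 months) and 74.03 and 54.2 CPM (30 months). The lowest older library was above the highest younger one, and the log2 fold change came to 1.23 ± 0.21 (SE, adjusted p = 0.168, and 5.46e-05 under DESeq2). Emb, which encodes embigin, a membrane glycoprotein of the immunoglobulin superfamily, was at 1.65 and 2.13 CPM (3 months), 1.91 and 1.93 (12 months), 3.01 and 4.18 (24 months) and 4.49 and 3.69 CPM (30 months). The 4 younger libraries of Emb lay close together and all older ones stood above them (log2 fold change 1.01 ± 0.16, SE, adjusted p = 0.135).

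Fam174b and Cyfip2, a member of the complex that controls branched actin, were also among the ranked higher genes with the widest gap. Fam174b was at 3.22 to 7.19 CPM in the older and 0.593 to 2.16 CPM in the younger libraries (log2 fold change 2.03 ± 0.37, SE), and Cyfip2 was at 17.5 to 37.8 CPM in the older and 3.28 to 12.7 CPM in the younger libraries (log2 fold change 1.73 ± 0.40, SE). The antisense gene Srrm4os was at 1.56 and 1.65 CPM (3 months), 2.82 and 3.07 (12 months), 5.87 and 6.103 (24 months) and 7.58 and 6.502 CPM (30 months), with no overlap of the pools and adjusted p = 0.135. Srrm4, the splicing factor gene that Srrm4os overlaps, was at 0.797 to 2.09 CPM in the older and 0.519 to 0.993 CPM in the younger libraries, which overlapped. No source used here gives the strand setting of the counting. Reads of Srrm4os and Srrm4 therefore cannot be told apart, nor can those of Cyfip2 and Fndc9 or of Fam174b and its overlapping neighbours. The same limit holds for other genes named here that overlap an annotated neighbour, among them Emb, Fras1, Ryr2, Atp2a2, Ampd3, Cxcl10, Irf7, H2-T22, Trp63, Col22a1, Obsl1, Rbfox2 and Snrpn.

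**Figure D2:**
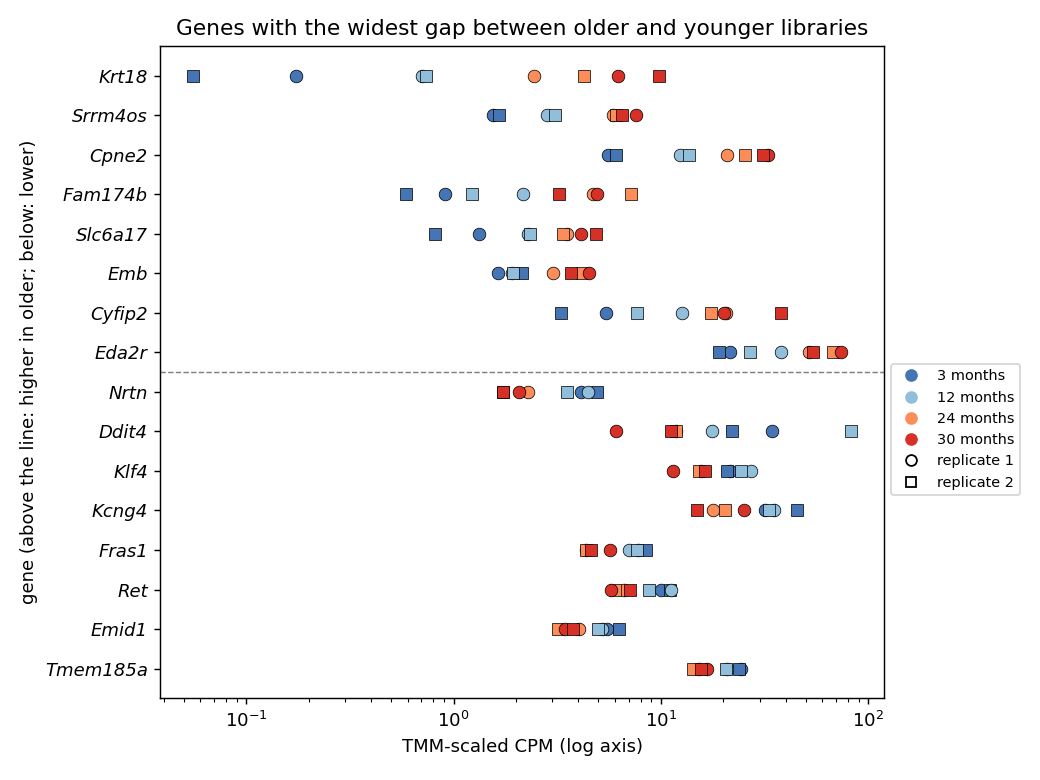
TMM-scaled CPM on a log axis for the 8 higher and 8 lower genes with the widest gap between the pools, 1 point per library, coloured by age, circles for replicate 1 and squares for replicate 2. Only genes with an average log2 CPM of at least 1 and a symbol other than a clone or prediction were ranked. In each gene the orange and red points (24 and 30 months) lie wholly on one side of the blue points (3 and 12 months), by the widest margin in Krt18.

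Among the ranked genes that were lower in the older pool, Nrtn had the widest gap. Nrtn (chromosome 17, 56751325 to 56757530, minus strand) encodes neurturin, a survival factor for neurons of the glial cell line-derived neurotrophic factor family. It was at 4.13 and 4.93 CPM (3 months), 4.46 and 3.52 (12 months), 2.28 and 1.73 (24 months) and 2.07 and 1.73 CPM (30 months). The older libraries were all below the younger ones, and the 2 older ages overlapped each other, as did the 2 younger ages. The pools had means of 1.95 ± 0.27 and 4.26 ± 0.59 CPM (SD, n = 4 libraries each), and the log2 fold change was -1.12 ± 0.16 (SE, adjusted p = 0.135, and 8.01e-07 under DESeq2).

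Ret (chromosome 6, 118151745 to 118197718, minus strand), the receptor tyrosine kinase through which neurturin and its relatives signal, had the same order of pools. It was at 9.997 and 11.1 CPM (3 months), 11.2 and 8.77 (12 months), 6.62 and 6.03 (24 months) and 5.72 and 7.12 CPM (30 months), and the log2 fold change came to -0.69 ± 0.12 (SE, adjusted p = 0.173, and 0.000282 under DESeq2). The co-receptors that bind the ligands were looked up after the values of Nrtn and Ret were seen. Gfra2, the preferred partner of neurturin, was at 1.19 to 3.505 CPM in the older and 1.93 to 3.43 CPM in the younger libraries and overlapped (log2 fold change -0.30 ± 0.30, SE, adjusted p = 0.849). Gfra1 was at 7.6 to 9.48 CPM in the older and 7.51 to 9.54 CPM in the younger libraries and overlapped too (log2 fold change 0.07 ± 0.12, SE, adjusted p = 0.924). The log2 differences of Nrtn and Ret were -1.16 and -0.64 within the 5 libraries with kidney transcripts and -0.88 and -0.57 within the other 3. Their sign in each set was fixed by the choice of separated genes, so this split is no check of it.

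Kcng4, a modifier subunit of voltage-gated potassium channels, was at 31.9 and 45.1 CPM (3 months), 35.3 and 33.2 (12 months), 17.7 and 20.3 (24 months) and 25.3 and 14.8 CPM (30 months). No older library reached a younger one (log2 fold change -0.90 ± 0.17, SE, adjusted p = 0.173). Klf4, a zinc finger transcription factor that responds early to stimuli, was at 21.6 and 20.9 CPM (3 months), 27.3 and 24.4 (12 months), 15.6 and 15.2 (24 months) and 11.4 and 16.2 CPM (30 months). Its pools did not overlap, and its highest level was at 12 months, not at 3 months (log2 fold change -0.69 ± 0.13, SE, adjusted p = 0.183).

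Ddit4, an inhibitor of the growth kinase complex mTORC1 that stress, fasting and glucocorticoids induce, was at 34.5 and 21.98 CPM (3 months), 17.6 and 82.5 (12 months), 11.8 and 11.9 (24 months) and 6.08 and 11.2 CPM (30 months). It had the second widest gap of the ranked lower genes, and its younger libraries were widely spread, with replicate 2 of 12 months far above the rest (log2 fold change -1.93 ± 0.49, SE, adjusted p = 0.403). Fras1, a matrix protein that anchors epithelia to the basement membrane, was at 4.33 to 5.66 CPM in the older and 7.01 to 8.47 CPM in the younger libraries. Emid1 was at 3.19 to 4.03 CPM in the older and 4.96 to 6.26 CPM in the younger libraries, and Tmem185a was at 14.2 to 16.8 CPM in the older and 20.5 to 24.3 CPM in the younger libraries. These 3 genes had log2 fold changes of -0.71, -0.60 and -0.53.

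Genes outside the naming rule were added after their values were seen. Prima1, which anchors acetylcholinesterase in membranes, was at 1.45 and 1.48 CPM (3 months), 0.526 and 1.56 (12 months), 0.384 and 0.311 (24 months) and 0.396 and 0.320 CPM (30 months). Its older libraries were all lower, with replicate 1 of 12 months nearer to them than the other younger libraries were. Without that library, Prima1 was the single gene called by the quasi-likelihood test of the pools (log2 fold change -2.08, adjusted p = 0.0378), where with all 8 libraries it had -1.82 ± 0.33 (SE, adjusted p = 0.173). Ryr2, the cardiac form of the calcium release channel, was at 0.325 and 0.278 CPM (3 months), 0.487 and 0.642 (12 months), 1.57 and 1.28 (24 months) and 1.94 and 3.17 CPM (30 months) and was separated upward (adjusted p = 0.135, and 0.0141 in the model of the 4 ages). Others of small spread were H3f3b, which encodes the replacement histone H3.3, at 36.9 to 47.5 CPM in the older and 24.1 to 27.6 CPM in the younger libraries, and Gstm2, a glutathione transferase, at 38.6 to 45.1 CPM in the older and 25.04 to 30.5 CPM in the younger libraries. Slc40a1, the iron exporter ferroportin, was at 16.4 to 25.3 CPM in the older and 25.9 to 41.6 CPM in the younger libraries.

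Denervation response genes included several that were higher in every older library. Of 21 tested members of that list, 7 were separated upward (33.3%, against 2.31% of all genes) and 0 downward (against 2.46%). The 7 were the receptor subunits Chrna1 and Chrnd, the keratins Krt8 and Krt18, the calcium pump regulator Sln, the AMP deaminase Ampd3 and the stress-responsive ankyrin repeat gene Ankrd1. The median log2 fold change of the list was 0.64, against 0.009 over all genes tested, and 19 of the 21 members had a positive fold change. The list was chosen with results of these data known, so its counts are a description.

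The receptor subunits show the size of these differences. Chrna1, the acetylcholine-binding alpha subunit, was at 7.59 and 9.99 CPM (3 months), 10.4 and 10.3 (12 months), 12.7 and 12.1 (24 months) and 15.3 and 23.3 CPM (30 months). Chrnd, the delta subunit, was at 1.39 and 0.908 CPM (3 months), 1.69 and 1.52 (12 months), 2.24 and 1.89 (24 months) and 1.85 and 3.81 CPM (30 months). In both genes the highest library was replicate 2 of 30 months, and the margin between the pools was small. Their log2 fold changes were 0.72 ± 0.20 and 0.83 ± 0.27 (SE, adjusted p = 0.416 and 0.489). These 2 genes were named after their values were seen.

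Krt8, the partner of keratin 18 in filaments, was at 0.0866 and 0.130 CPM (3 months), 0.0779 and 0.136 (12 months), 0.556 and 0.350 (24 months) and 0.859 and 2.28 CPM (30 months). The younger libraries were near the limit that a count of 0 allows, and replicate 2 of 30 months was the highest. Ampd3, which converts AMP to IMP, was at 11.4 and 10.5 CPM (3 months), 12.2 and 12.7 (12 months), 14.7 and 16.8 (24 months) and 20.02 and 21.4 CPM (30 months), with no overlap (log2 fold change 0.64 ± 0.13, SE, adjusted p = 0.218). Gadd45a, a growth arrest gene that denervated muscle induces, was at 14.9 and 14.1 CPM (3 months), 12.7 and 22.9 (12 months), 22.1 and 26.7 (24 months) and 31.6 and 42.03 CPM (30 months), and its 24 month replicate 1 lay just below 12 month replicate 2.

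At the neuromuscular junction itself, 2 of 16 tested genes were separated upward (12.5%, against 2.31% of all genes) and 0 downward (against 2.46%). Chrnb1, the beta subunit of the receptor, was at 20.3 to 27.3 CPM in the older and 12.7 to 17.7 CPM in the younger libraries, and Lrp4, the muscle receptor for nerve-derived agrin, was at 33 to 36.95 CPM in the older and 22.6 to 31.6 CPM in the younger libraries. Agrn, which encodes agrin, was at 13.7 to 23.6 CPM in the older and 12.7 to 18.2 CPM in the younger libraries and overlapped. The median log2 fold change of the list was 0.14. The Schwann cell list, whose members wrap the nerve, summed to 61.3 to 192 CPM in the older and 85.5 to 153 CPM in the younger libraries, an overlap.

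Replicate 2 of 30 months stood highest for much of the denervation list. The median deviation of the list from the mean of the 8 libraries was 0.95 on the log2 scale in that library, against 0.03, 0.13 and 0.23 in the other older libraries and -0.45 to -0.19 in the younger ones. All 4 older medians were above all 4 younger ones. Without replicate 2 of 30 months the median log2 fold change of the list was 0.37.

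**Figure D3:**
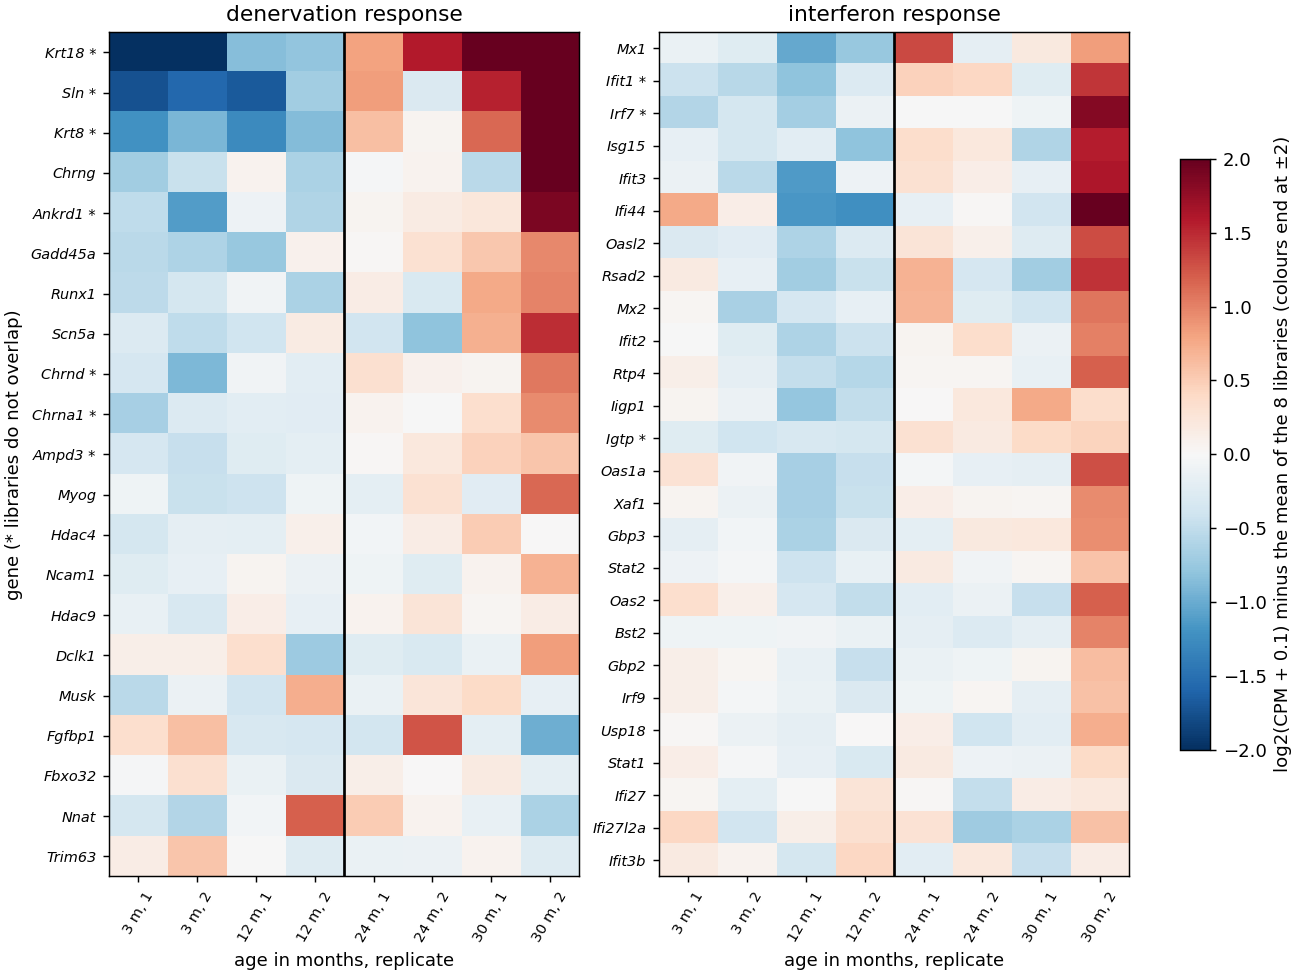
Deviation of each gene from its mean over the 8 libraries, on the scale log2(CPM + 0.1), for the 21 tested denervation response genes (left) and the 26 interferon response genes (right), with libraries in columns by age and replicate. Stars mark genes whose libraries do not overlap, 7 on the left and 3 on the right, and the last column, replicate 2 of 30 months, is the darkest red in most of the genes.

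Slow fibre genes were higher on average in the older pool. All 13 had a positive log2 fold change, with a median of 0.93, and 7 had an unadjusted p under 0.05 (4.23% of all genes were higher at that threshold), and Atp2a2 and Sln were separated (15.4%, against 2.31% of all genes). Atp2a2, the calcium pump of slow and cardiac muscle, was at 151 and 140.1 CPM (3 months), 238 and 165 (12 months), 268 and 276 (24 months) and 277 and 532 CPM (30 months). Sln encodes sarcolipin, a small inhibitor of that pump and its relatives, and was at 1.17 and 1.33 CPM (3 months), 1.23 and 2.53 (12 months), 7.52 and 3.36 (24 months) and 12.2 and 51.2 CPM (30 months). In both genes every older library exceeded every younger one, and replicate 2 of 30 months was far above the other older libraries. The log2 fold changes were 0.96 ± 0.25 and 3.57 ± 0.84 (SE, adjusted p = 0.378 and 0.365).

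Myh7, the slow myosin heavy chain, was at 124 and 76.96 CPM (3 months), 329 and 262 (12 months), 400.1 and 304 (24 months) and 483 and 889.6 CPM (30 months). The older range reached down into the younger one, through replicate 2 of 24 months and replicate 1 of 12 months, and both 3 month libraries were lowest (log2 fold change 1.39 ± 0.48, SE, adjusted p = 0.527). Without replicate 2 of 30 months, the median log2 fold change of the slow list was 0.63. Without replicate 2 of 3 months, it was 0.62. A list of heart markers that also holds Sln summed to 5.52 to 56.0 CPM in the older and 2.70 to 5.13 CPM in the younger libraries, and Sln made up most of the older sums. Of its other members, Myh6 was at 1.85 to 4.18 CPM in the older and 1.04 to 2.41 CPM in the younger libraries, Tnni3 at 0.155 to 0.508 and 0.0865 to 0.195 CPM, Nppa at 0.0971 to 0.153 and 0.0649 to 0.195 CPM, and Tbx20 at 0.0220 to 0.0583 and 0 to 0.0216 CPM, while Myl7, Nppb, Gata4 and Nkx2-5 were at 0 to 0.0220 CPM. The part of heart transcripts in the slow fibre values was not tested.

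Fast fibre genes lay on both sides of 0. Of 15 members, Myoz1 alone was separated (6.67% lower, against 2.46% of all genes), and the median log2 fold change was -0.07, and 0.06 without replicate 2 of 30 months. Myoz1, a Z-disc protein of fast fibres, was at 1678 and 1917 CPM (3 months), 1644 and 1831 (12 months), 1305 and 1215 (24 months) and 1487 and 1009 CPM (30 months), and the log2 fold change came to -0.49 ± 0.14 (SE, adjusted p = 0.461). The fast myosins overlapped between the pools, with Myh1 at 2989 to 6971 CPM in the older and 3095 to 5705 CPM in the younger libraries and Myh2 at 2648 to 6586 CPM in the older and 2787 to 3737 CPM in the younger libraries.

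Among 30 sarcomere and Z-disc genes, 3 were separated upward (10%, against 2.31% of all genes) and Myoz1 downward (3.33%, close to the 2.46% of all genes), with a median log2 fold change of 0.25. Myom3, a myomesin of the M-band, was at 91.1 to 182 CPM in the older and 51.6 to 90.8 CPM in the younger libraries, and Obsl1, an obscurin-like linker of the same band, was at 56.7 to 69.3 CPM in the older and 40.5 to 54.1 CPM in the younger libraries. Mrln, which encodes myoregulin, an inhibitor of the calcium pump, was separated downward, at 25.9 to 36.1 CPM in the older and 37.2 to 53.2 CPM in the younger libraries. Cav3, the muscle caveolin, was lower in all older libraries, at 31.8 to 33.2 CPM in the older and 37.1 to 43.8 CPM in the younger libraries (log2 fold change -0.35 ± 0.09, SE, adjusted p = 0.344). It was the only separated gene among 17 of the dystrophin complex list (5.88%, against 2.46% of all genes).

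Interferon response genes had a median log2 fold change of 0.65 over 26 tested members, 23 of them positive. Separated upward were 3 members (11.5%, against 2.31% of all genes), Igtp, Ifit1 and Irf7, and 0 were separated downward (against 2.46%). Igtp encodes an immunity-related GTPase that interferon-gamma induces, Ifit1 an RNA-binding antiviral protein, and Irf7 a transcription factor of the interferon pathway. Upstream sequences of 4 genes of the pathway are shown first, to set the letters of neighbouring genes side by side.

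The 250 bases before the RefSeq start of 4 genes are given on the strand of the gene (RefSeq, GRCm38.p6). Capitals mark matches to GAAANNGAAA, searched on both strands, or to TTCNNNGAA, which reads the same on both. The first resembles the interferon-stimulated response element and the second the gamma-activated site, the elements bound by interferon-induced factors. The windows are chr11:58199306-58199555 for Igtp, chr11:58214727-58214976 for Irgm2 and chr19:34640639-34640888 for Ifit1, all on the plus strand, and chr5:92348890-92349139 on the minus strand for Cxcl10, a chemokine gene.
Igtp: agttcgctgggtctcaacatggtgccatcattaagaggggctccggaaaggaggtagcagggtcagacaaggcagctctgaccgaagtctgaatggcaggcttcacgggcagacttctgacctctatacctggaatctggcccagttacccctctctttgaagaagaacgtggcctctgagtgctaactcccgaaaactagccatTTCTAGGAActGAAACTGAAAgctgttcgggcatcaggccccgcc
Irgm2: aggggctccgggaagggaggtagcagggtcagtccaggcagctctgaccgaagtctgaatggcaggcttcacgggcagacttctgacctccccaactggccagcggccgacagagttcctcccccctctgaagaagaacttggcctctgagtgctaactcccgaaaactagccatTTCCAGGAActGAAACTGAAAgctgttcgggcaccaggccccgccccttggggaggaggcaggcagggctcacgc
Ifit1: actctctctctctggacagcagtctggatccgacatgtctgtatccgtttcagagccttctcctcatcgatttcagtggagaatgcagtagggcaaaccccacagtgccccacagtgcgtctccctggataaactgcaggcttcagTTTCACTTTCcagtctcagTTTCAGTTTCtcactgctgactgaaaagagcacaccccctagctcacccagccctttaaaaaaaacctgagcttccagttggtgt
Cxcl10: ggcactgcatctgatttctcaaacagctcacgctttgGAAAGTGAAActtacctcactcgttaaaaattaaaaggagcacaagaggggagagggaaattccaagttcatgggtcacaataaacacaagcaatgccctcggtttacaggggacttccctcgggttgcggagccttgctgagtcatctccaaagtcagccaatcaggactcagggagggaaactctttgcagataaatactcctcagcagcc

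Igtp and Irgm2 held 1 match to each motif, with the same spacing between them. In Igtp the matches began 45 and 34 bases before the start, and in Irgm2 they began 75 and 64 bases before it. The longest run of identical bases in the 2 windows was 55, and 60.9% of 220 bases were identical when the windows were aligned without gaps on the second motif. Ifit1 held 2 matches to the first motif, on the other strand, and Cxcl10 held 1. Of 17 interferon list members with an entry among the promoters, 11 (64.7%) held the first motif and 4 (23.5%) the second, against 2.98% and 7.02% of all 32851 promoters of the same length. Members were counted by gene, over any promoter of the gene, and the 32851 by promoter, so the shares are not of like units. A match describes the letters of the window and says nothing of binding.

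Igtp (chromosome 11, 58199556 to 58207591, plus strand) was at 8.68 and 7.77 CPM (3 months), 8.22 and 8.01 (12 months), 12.7 and 11.6 (24 months) and 13.4 and 13.9 CPM (30 months). Its older and younger libraries formed 2 narrow bands, 12.9 ± 1.03 and 8.17 ± 0.386 CPM (SD, n = 4 each), and the log2 fold change came to 0.66 ± 0.10 (SE, adjusted p = 0.135, and 1.44e-05 under DESeq2). Irgm2 (chromosome 11, 58199618 to 58222782, plus strand), a second GTPase of that family, was picked once its values were known. It stood at 10.8 and 11.2 CPM (3 months), 10.6 and 9.92 (12 months), 14.4 and 14.8 (24 months) and 15.99 and 16.02 CPM (30 months), again with no overlap (log2 fold change 0.53 ± 0.09, SE, adjusted p = 0.168). The annotated spans of Igtp and Irgm2 overlap, so the authors' counting could have split or shared reads between them.

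Ifit1 was at 1.82 and 1.67 CPM (3 months), 1.38 and 2.04 (12 months), 3.45 and 3.34 (24 months) and 2.09 and 6.88 CPM (30 months). The older libraries were above the younger ones, but replicate 1 of 30 months exceeded replicate 2 of 12 months only slightly (log2 fold change 1.19 ± 0.32, SE, adjusted p = 0.392). Irf7 was at 2.29 and 2.71 CPM (3 months), 2.12 and 3.21 (12 months), 3.47 and 3.46 (24 months) and 3.26 and 12.6 CPM (30 months), and its separation rested on small margins in 3 of the 4 older libraries beside 1 very high one. Mx1, an antiviral GTPase, was at 0.627 and 0.575 CPM (3 months), 0.292 and 0.369 (12 months), 1.898 and 0.603 (24 months) and 0.815 and 1.32 CPM (30 months) and overlapped, and Iigp1, another immunity-related GTPase, was at 9.702 to 16.4 CPM in the older and 5.57 to 9.997 CPM in the younger libraries and overlapped as well.

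The interferon list as a whole was high in a single older library. Its median deviation was 0.98 in replicate 2 of 30 months, 0.10 and 0.02 in the 24 month libraries, and -0.17 in replicate 1 of 30 months, which is lower than the highest younger value of 0.04. Without replicate 2 of 30 months the median log2 fold change of the list was 0.26. The difference of Igtp did not have this pattern, since all 4 of its older libraries lay between 11.6 and 13.9 CPM.

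Chemokines that leucocytes follow were low in all libraries. Cxcl10, which interferon-gamma induces, was at 0.260 and 0.389 CPM (3 months), 0.370 and 0.389 (12 months), 0.901 and 1.59 (24 months) and 2.47 and 0.942 CPM (30 months). The highest older library was replicate 1 of 30 months, not replicate 2 (log2 fold change 2.05 ± 0.35, SE, adjusted p = 0.168, and 7.14e-05 under DESeq2). Ccl7, an attractant of monocytes, was at 0.173 and 0.241 CPM (3 months), 0.136 and 0.175 (12 months), 0.441 and 0.292 (24 months) and 0.837 and 0.999 CPM (30 months), with the younger libraries just above the limit of a count of 0. Cxcl10 and Ccl7 were the separated members among 22 complement and chemokine genes (9.09%, against 2.31% of all genes), while Ccl2 was at 0.447 to 1.72 CPM in the older and 0.175 to 0.498 CPM in the younger libraries and overlapped.

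Antigen presentation genes overlapped almost throughout, as did most genes tested. H2-T22 was the single separated gene of 16 in the MHC class I list (6.25%, against 2.31% of all genes). It was at 15.8 to 17.4 CPM in the older and 12.8 to 14.2 CPM in the younger libraries. Of the 16, 15 had a positive log2 fold change, with a median of 0.29. In the MHC class II list 0 of 9 were separated (against 4.78% of all genes, too small a share for 0 to stand out). All 9 were positive, and the median was 0.59. Cd74, the invariant chain of class II, was at 32.5 and 45.5 CPM (3 months), 57.8 and 38.1 (12 months), 68.6 and 39.8 (24 months) and 60.9 and 96.5 CPM (30 months). Without replicate 2 of 30 months the medians were 0.10 for class I and 0.27 for class II.

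Markers of blood-derived cells were measured beside these genes. The summed level of 15 T and NK cell markers was 3.19 to 3.65 CPM in the older and 1.69 to 2.57 CPM in the younger libraries, and none of the 15 was at 0 throughout. The sum of 20 macrophage and monocyte markers was 480 CPM in replicate 2 of 30 months, 166.5 to 264 CPM in the other older libraries and 182 to 282 CPM in the younger ones. Their part in the interferon, chemokine and antigen presentation values was not tested.

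Targets of p53 lay on both sides of 0. Over 23 tested members the median log2 fold change was 0.025. Separated upward were 2 members, Eda2r and Plk2 (8.7%, against 2.31% of all genes), and Ddit4 was separated downward (4.35%, against 2.46%). Plk2, a kinase of the stress response and of centriole duplication, was at 7.49 and 6.67 CPM (3 months), 8.65 and 8.54 (12 months), 12.8 and 11.2 (24 months) and 14.2 and 14.5 CPM (30 months). Its pools were distinct, and the log2 fold change came to 0.75 ± 0.12 (SE, adjusted p = 0.148, and 0.000142 under DESeq2). In the NF-kappaB list 19 of 20 members were positive, with a median of 0.19 (0.11 without replicate 2 of 30 months). Birc3, an inhibitor of apoptosis, was the single separated gene (5%, against 2.31% of all genes). It was at 9.15 to 11.3 CPM in the older and 7.21 to 8.997 CPM in the younger libraries. Nfkb2, which encodes the p100 precursor of this pathway, was at 14.7 to 24.7 CPM in the older and 8.396 to 14.97 CPM in the younger libraries and overlapped.

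Trp63, the p63 relative of p53, was also higher in every older library. It stands in the skin marker list, which summed to 17.6 to 20.97 CPM in the older and 10.1 to 15.5 CPM in the younger libraries, and it made up most of that sum. Trp63 was at 8.65 and 9.79 CPM (3 months), 11.2 and 13.8 (12 months), 15.6 and 17.8 (24 months) and 19.5 and 18.1 CPM (30 months), whereas Krt10, a keratin of the outer skin, was at 1.45 to 1.86 CPM in the older and 1.27 to 1.72 CPM in the younger libraries and overlapped.

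Collagen and matrix genes were lower on average. Of 29 members, 24 had a negative log2 fold change, with a median of -0.39, and 9 of them had an unadjusted p under 0.05 (3.79% of all genes were lower at that threshold). Separated in either direction were 0, against 4.78% of all genes, a share at which a list of this size can hold 0 by chance. The median was -0.23 when replicate 1 of 12 months was left out, and the same when replicate 2 of 24 months was. It was -0.20 with the libraries with kidney transcripts as a term. Within those libraries it was -0.32, but within the others, where replicate 2 of 12 months was the only younger library, it was -0.02. Col1a1, a chain of the main fibrillar collagen, was at 448 and 505 CPM (3 months), 261 and 93.4 (12 months), 119 and 43.97 (24 months) and 126 and 138 CPM (30 months). The 12 month replicate 2 library lay inside the older range, and replicate 2 of 24 months was the lowest (log2 fold change -1.61 ± 0.53, SE, adjusted p = 0.496). Col1a2, its partner chain, was at 447 and 503 CPM (3 months), 346 and 169.5 (12 months), 172 and 86.2 (24 months) and 184 and 185 CPM (30 months), with the same libraries in these positions.

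Tendon markers, such as Fmod (fibromodulin) and Thbs4, were negative in 11 of 11 genes, with a median of -0.59, and summed to 171.5 to 317 CPM in the older and 209 to 635 CPM in the younger libraries. The median ran from -0.86 without replicate 2 of 12 months to -0.41 without replicate 1 of that age. It was -0.79 within the libraries with kidney transcripts but 0.05 within the others, where replicate 2 of 12 months was the only younger library. The separated member was Col22a1, a collagen of the muscle-tendon junction (9.09% of the list, against 2.46% of all genes). Col22a1 was at 24.5 and 21.96 CPM (3 months), 27.2 and 28.2 (12 months), 19.2 and 17.98 (24 months) and 19.7 and 16.96 CPM (30 months). The part of connective tissue taken with the muscle in the collagen values was not tested.

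Transport and metabolic genes included several that were lower. Slc38a4 and Slc38a2, carriers of small neutral amino acids, were the separated genes among 19 amino acid transporters (10.5%, against 2.46% of all genes). Slc38a4 was at 150.1 and 189 CPM (3 months), 108 and 109.7 (12 months), 97.2 and 75.3 (24 months) and 72.8 and 58.7 CPM (30 months). Slc38a2 was at 166 and 163 CPM (3 months), 159 and 125 (12 months), 109 and 120.4 (24 months) and 89.7 and 108 CPM (30 months). Both had every older library below every younger one, and Slc38a4 was highest at 3 months, with log2 fold changes of -0.87 ± 0.20 and -0.52 ± 0.13 (SE, adjusted p = 0.334 and 0.344).

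Smox, which oxidises the polyamine spermine, was at 272 and 566 CPM (3 months), 266 and 515 (12 months), 131 and 249.8 (24 months) and 215 and 76.5 CPM (30 months). Its pools were apart, but each pool spanned a wide range (log2 fold change -1.27 ± 0.38, SE, adjusted p = 0.483). Amd1, which supplies the precursor for polyamine synthesis, was at 153 to 686 CPM in the older and 630.5 to 879 CPM in the younger libraries and overlapped. In glycolysis and glycogen metabolism 2 of 21 genes were separated downward (9.52%, against 2.46% of all genes), among them Ldha, lactate dehydrogenase A, at 1410 to 1861 CPM in the older and 2034 to 2641 CPM in the younger libraries. The nuclear genes of oxidative phosphorylation had 0 separated among 40 (against 4.78% of all genes) and a median log2 fold change of -0.059. Of the 40, 0 had an unadjusted p under 0.05 (against 8.03% of all genes). The proteasome list had 0 separated of 25. At a share of 4.78%, lists of these sizes can hold 0 by chance.

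Nfil3, a repressor tied to the circadian clock, was at 36.7 and 37 CPM (3 months), 23.1 and 28.7 (12 months), 13.3 and 16.4 (24 months) and 10.8 and 19.5 CPM (30 months). All older libraries were lower than all younger ones (log2 fold change -1.06 ± 0.20, SE, adjusted p = 0.183, and 0.000465 under DESeq2). Cry1, a core clock repressor, was separated downward with a smaller difference, at 12.7 to 14.2 CPM in the older and 14.96 to 17.9 CPM in the younger libraries. Nfil3 and Cry1 were the separated genes among 19 clock genes (10.5%, against 2.46% of all genes). The other 17 clock genes tested overlapped, among them Nr1d2 at 81.7 to 156 CPM in the older and 80.8 to 109 CPM in the younger libraries. Snrpn, an imprinted gene, was at 25.7 and 25.1 CPM (3 months), 24.7 and 24.7 (12 months), 20.5 and 20.7 (24 months) and 20.9 and 18.8 CPM (30 months), 2 bands with a narrow gap (log2 fold change -0.31 ± 0.08, SE, adjusted p = 0.378).

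**Figure D4:**
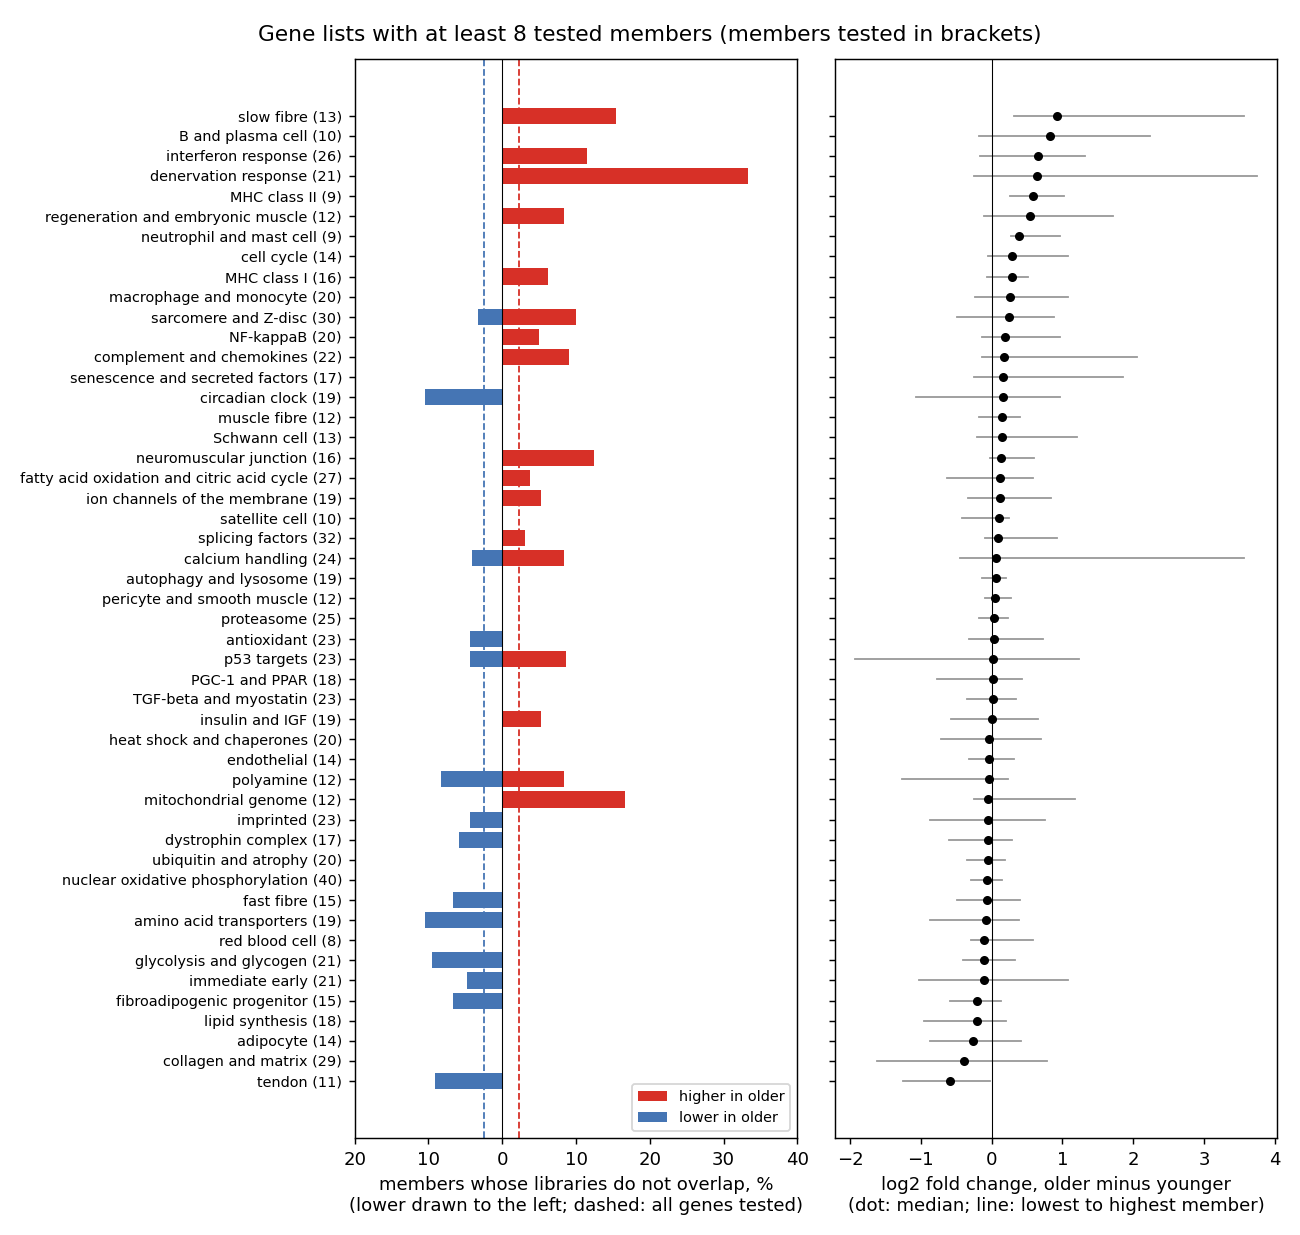
For each gene list with at least 8 tested members, the kidney list left out, the left panel shows the share of members, in percent, whose libraries do not overlap (higher in older to the right, lower to the left, with dashed lines at 2.31% and 2.46% for all genes tested), and the right panel the median, lowest and highest log2 fold change. The denervation response list has the longest bar, 33.3%, and the tendon and collagen lists have the lowest medians of the lists plotted.

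Courses over the 4 ages took more than one form among separated genes. Emb, Igtp, Irgm2, Nrtn and Ret stood at about one level at 3 and 12 months and at another at 24 and 30 months. Their log2 differences from 12 to 24 months were 0.88, 0.57, 0.51, -0.98 and -0.65, against 0.03, -0.02, -0.10, -0.19 and -0.08 from 3 to 12 months. Cpne2 and Slc6a17 instead had their largest difference between 3 and 12 months (1.15 and 1.12), with 0.83 and 0.57 from 12 to 24 months and 0.47 and 0.37 from 24 to 30 months. For genes of the second form the pools mix levels that differ within each pool, which widens the spread in the test of the pools.

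**Figure D5:**
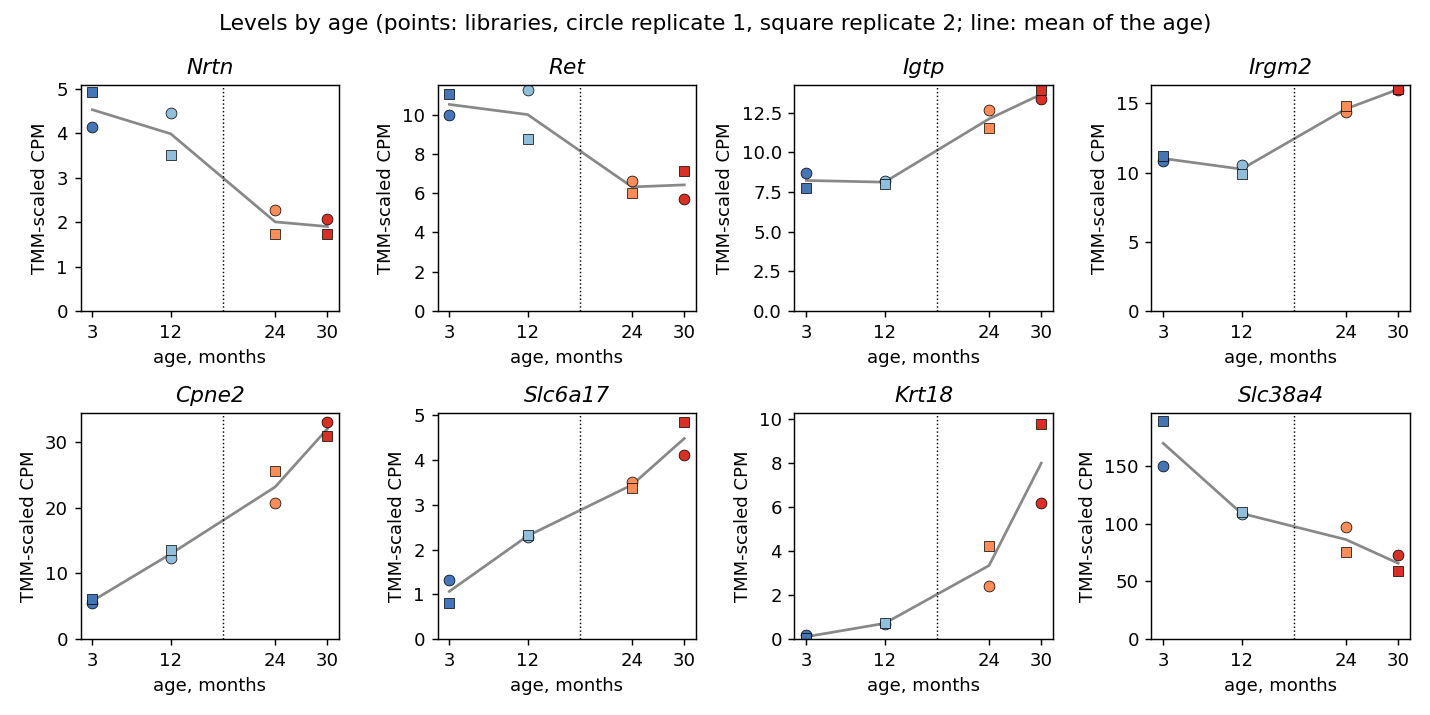
TMM-scaled CPM by age in months for 8 separated genes, with circles for replicate 1, squares for replicate 2, a line through the mean of each age and a dotted line between the pools. Nrtn, Ret, Igtp and Irgm2 have their main difference between 12 and 24 months, whereas Cpne2, Slc6a17, Krt18 and Slc38a4 also differ between 3 and 12 months.

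Of the 17 genes called in the model of the 4 ages, 15 were separated. They included Krt18, Srrm4os, Cpne2, Ryr2, Fam174b, Eda2r, Prkcz, Slc6a17 and the long non-coding gene Gm11734, each higher in the older pool. The rest were further predicted genes, among them the gene with the lowest adjusted p in that model (0.000258), and 2 mitochondrial genes. These 2, mt-Nd3 and a tRNA gene, had log2 gaps between the pools of only 0.013 and 0.027. Gm11734, picked once its values were known, stood at 0.281 and 0.352 CPM (3 months), 0.253 and 0.389 (12 months), 1.34 and 0.952 (24 months) and 1.08 and 1.58 CPM (30 months). Its younger libraries lay within a narrow band and its older ones were all higher, with the lowest unadjusted p of all genes in the test of the pools (7.87e-06, adjusted p = 0.135). Others in the 17 differed mainly at 3 months. The mitochondrial gene mt-Nd3 was at 0.606 and 0.408 CPM (3 months), 13.7 and 11.4 (12 months), 13.9 and 15.1 (24 months) and 16.4 and 13.8 CPM (30 months), and the nuclear pseudogene Gm28438 was at 22.4 and 19.6 CPM (3 months), 0.350 and 0.525 (12 months), 0.384 and 0.544 (24 months) and 0.528 and 0.471 CPM (30 months). Their transcripts are identical at 99.7% of 345 bases, so the split of reads between them is uncertain and neither value is read as a level of that gene.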

How the data were processed

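Per the labels' protocols, Trizol was used to extract the RNA and a NEBNext Ultra kit to prepare libraries. The authors deposited raw integer counts for 49315 Ensembl genes per library. The submitters' processing notes name featureCounts, Subread 1.5.2, STAR 2.5.2b, Trimmomatic 0.36 and the builds mm10 and GRCm38, with no roles. Annotation release, strandedness and the fate of multiply mapping reads: not given in the sources used here. GENCODE M21 (GRCm38) supplied symbols and positions for 49056 identifiers, and for 44858 of these both ends were the same. Every row named a gene.

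The main test used edgeR 4.0.16 under R 4.3.3 (filterByExpr on the pools, TMM, robust quasi-likelihood test of older against younger, 6 residual degrees of freedom, Benjamini-Hochberg adjustment over all genes, threshold 0.05). The procedure was tested on simulated counts. A gene was separated where its 4 older libraries all lay above or all below the 4 younger ones in TMM-scaled CPM. Totals of 42404254 to 59245029 counts set the precision.

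Named genes are up to 8 per direction with the largest gap between the pools (log2 CPM, prior count 2). These needed an average log2 CPM of at least 1 and a symbol other than a clone or prediction. Also named are up to 4 per gene list with the lowest p, or for cell types the 3 most abundant. List members had no such minimum, and Krt8 and Ccl7 were at averages of -0.73 and -1.15. The part of the rule for called genes (up to 12 per direction) named none. Members, lists and tests were chosen with earlier results of these data known. Genes outside the rule, namely Chrna1, Chrnd, Gfra1, Gfra2, Gm11734, Gm28438, Gstm2, H3f3b, Irf7, Irgm2, Prima1, Prkcz, Ryr2 and Slc40a1, were chosen after their values were seen. Of 957 listed symbols in 57 lists, 954 were in the files. Upstream sequences are RefSeq's.

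Alternatives were RLE size factors, library totals, no low count filter, 1 CPM in 4 libraries, DESeq2 1.42.0, limma-voom (limma 3.58.1), the 4 ages as the model (4 residual degrees of freedom), a replicate block, a term for the libraries with over 1 CPM of kidney transcripts, a minimum change of 1.2 times, no mitochondrial or satellite-like genes, and each library or age left out. The 4 ages with that term (3 residual degrees of freedom) were added after seeing the data.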

Additional observations from a re-analysis of the deposited data

Results flagged for a closer look

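Among 168 groups of 4 libraries (the younger and the older pool of each named gene), 13 held a library whose distance to the nearest other exceeded, as a share of the range of the group on the log2 scale, Dixon's 95% critical value for 4 values. Chance flags about 1 in 20 groups. No explanation was tested for these values.

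Replicate 2 of 30 months stood above the other older libraries in 3 genes. Atp2a2 was at 532 CPM against 268 to 277, Ankrd1 at 36.0 against 10.03 to 11.3, and Irf7 at 12.6 against 3.26 to 3.47. Replicate 2 of 24 months stood below the other older libraries in Col1a1 (44.0 CPM against 119 to 138), Col1a2 (86.2 against 172 to 185) and Thbs4 (61.4 against 97.9 to 103). Ddit4 was lowest in replicate 1 of 30 months (6.08 against 11.2 to 11.9).

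In the younger pool, replicate 2 of 12 months stood apart in Sln (2.53 CPM against 1.17 to 1.33), Slc38a2 (125 against 159 to 166) and Gfra2 (1.93 against 3.14 to 3.43). Prima1 was at 0.526 CPM in replicate 1 of 12 months and at 1.45 to 1.56 in the others. Replicate 1 of 3 months was the low one in Cxcl10 (0.260 against 0.370 to 0.389) and in Chrna1 (7.59 against 9.99 to 10.4).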

How the results depend on the processing

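The quasi-likelihood test of the pools called 0 genes, with 1479 at an unadjusted p under 0.05, and it also called 0 with RLE size factors, library totals, a filter of 1 CPM in 4 libraries, limma-voom, the library set as a term, a minimum change of 1.2 times, or without mitochondrial and satellite-like genes. Other settings gave calls, and the cause was not tested. These were DESeq2 with 123, no low count filter with 26, the model of the 4 ages with 17, the same model with the library set as a term with 228, and the pools without both libraries of 12 months with 44. Of the 228 genes, 97 were separated and 77 were also called by DESeq2. Leaving out each library in turn gave 0 to 1 calls. Prima1 was called when replicate 1 of 12 months was left out, and the predicted gene Gm16867 (log2 fold change 5.39, adjusted p = 0.0134) when replicate 2 of that age was.

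The count of 880 separated genes was 876 with RLE size factors, 680 with library totals and 686 with the stricter filter. With library totals, 290 were higher and 390 lower. Fewer libraries to separate gave larger counts by construction, 1253 to 2168 with 1 library left out, and 2510, 4220, 3141 and 2457 without both libraries of 3, 12, 24 and 30 months.

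Adding a replicate block, the test called 0 genes. The numbers did not pair the libraries, since correlations of deviations between same-numbered libraries ran from -0.392 to 0.287.

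Of 84 named genes, few had a sign that depended on a setting. Many of them were chosen because their pools do not overlap. That choice fixes the order of their pools when libraries are left out, so their stable sign is no support. Krt10 (main value 0.07) ran from -0.006 to 0.141 with 1 library left out, being -0.004 when replicate 1 of 12 months was the one, and was at -0.016 without both libraries of 24 months. Gfra2 was at 0.015 without both libraries of 24 months, Gfra1 at -0.014 without both of 30 months, and Gm28438 at 0.132 without both of 3 months. Of 1318 list medians under alternatives, 1287 moved by less than 1 SD, the spread of a list's library medians within the pools. That spread was wide for some lists, so a move within it can be large. Without both libraries of 30 months the slow fibre median went from 0.93 to 0.46 (SD 0.55). The macrophage and monocyte median then went from 0.26 to -0.18 (SD 0.48). The floor of 3 counts limits what can be said of genes below 0.0506 to 0.0707 CPM.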

Other observations

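Kcnn3, a calcium-activated potassium channel that denervated fibres express, was the single separated gene among 19 membrane ion channel genes (5.26%, against 2.31% of all genes). It was at 4.38 to 7.27 CPM in the older and 2.49 to 3.603 CPM in the younger libraries (log2 fold change 0.81 ± 0.19, SE, adjusted p = 0.334 in the edgeR test of the pools). Rbfox2, a regulator of muscle splicing, was the single separated gene among 32 splicing factors (3.12%, close to the 2.31% of all genes). Its levels were 81.5 to 91.98 CPM in the older and 68.2 to 79.6 CPM in the younger libraries. Of the 32, 24 had a positive log2 fold change, with a median of 0.091 (0.051 without replicate 2 of 24 months). Igf1r, the receptor of insulin-like growth factor 1, was at 30.04 to 33.1 CPM in the older and 24.3 to 29.9 CPM in the younger libraries, with no overlap and a log2 fold change of 0.20. The cell cycle list had 13 positive fold changes among 14 (median 0.29, but 0.15 without replicate 2 of 30 months and 0.17 when that of 12 months was left out). It had 0 separated genes, against 4.78% of all genes. Mki67, a marker of dividing cells, was at 1.49 and 1.28 CPM (3 months), 1.83 and 0.506 (12 months), 2.13 and 1.73 (24 months) and 1.94 and 4.32 CPM (30 months), highest in replicate 2 of 30 months.

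Immunoglobulin genes, products of B and plasma cells, differed most between 3 months and all later ages. Igkc, the kappa light chain constant region, was at 0.368 and 0.278 CPM (3 months), 2.28 and 8.69 (12 months), 13.5 and 6.32 (24 months) and 12.4 and 10.1 CPM (30 months). Ighg2c, a gamma heavy chain constant region, was at 0.606 and 0.482 CPM (3 months), 6.04 and 12.9 (12 months), 8.69 and 13.2 (24 months) and 13.7 and 6.12 CPM (30 months). In both genes the 12 month libraries lay far above the 3 month ones and, for Ighg2c, replicate 2 lay inside the older range and replicate 1 just below it. Of 10 tested genes of the list, 0 were separated, against 4.78% of all genes. Lipid synthesis genes had 0 separated of 18, against the same 4.78%. Their median log2 fold change was -0.21 (-0.05 without replicate 1 of 3 months, or -0.11 when that of 30 months was left out). Scd1, a fatty acid desaturase, was at 80.8 to 152 CPM in the older and 125 to 337 CPM in the younger libraries.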
